A study of Mus musculus with 24 samples.

Results

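C57epi.1 is a line of epithelial cells derived from C57BL/6 mice, from the upper part of the reproductive tract. The results concern its response to an inflammatory supernatant, measured on 8 of the 24 arrays of the study, which were chosen by their labels and not by any measured value. On 4 arrays the C57epi.1 cells had been treated with the supernatant, which was RPMI conditioned by infected epithelial cells and CD4 T cells of a clone specific for Chlamydia. It was used at 33% (v/v), with interferon-gamma brought to 4 ng/ml. On the other 4 arrays, C57epi.1 cells had been kept in RPMI media without treatment. Both groups were monolayers of the same line, grown in medium with Hepes, serum, 2-ME and gentamicin. The labels give no time of exposure. Because the supernatant comes from infected cells and T cells, it can hold further cytokines and microbial material besides interferon-gamma, and these cannot be told apart here. For comparison, the same design was run on Bm12.4, a like epithelial line whose donors were B6(C)-H2-Ab1bm12/KhEgJ mice (4 supernatant and 4 media arrays), and on macrophages grown from C57BL/6 femur bone marrow (4 supernatant and 4 media arrays). The question is how each cell type changes in surroundings like those of an infected genital tract.

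Interferon-gamma acts on most cells through a receptor that signals by Jak kinases. It induces the transcription factor Irf1 and, with it, genes for antigen presentation, chemokines and cell-autonomous defence. Type I interferons signal through a complex that holds Stat2 and Irf9 and binds the interferon-stimulated response element (ISRE) of antiviral genes. Guanylate-binding proteins and immunity-related GTPases can attack the vacuoles in which intracellular microbes such as Chlamydia live. Cells that make much secreted protein can also start the unfolded protein response, in which Atf6, Xbp1 and Atf4 raise chaperone and stress genes.

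Each value is a log2 level per gene and array, so a difference of 1 is 2-fold. Array medians lay between 5 and 5.16 in C57epi.1. Without a measure of detection for each probe set, levels of about 4 cannot be told from background, and folds against such levels describe the array values only. Supernatant arrays correlated across genes at 0.9925 to 0.9975 with each other, against 0.976 to 0.9966 for media arrays. In media, replicates 3 and 4 stood apart from replicates 1 and 2. Between those media pairs limma called 4553 genes (22.8%), while between the same pairs of supernatant arrays it called 0, with 1303 genes at an unadjusted p under 0.05. The test was therefore also run within replicates 1 and 2 and within replicates 3 and 4, and values of the pairs are given for many of the lists and for several genes. The labels do not say that replicates came from separate cultures, and a p-value then reflects only how these arrays scatter, which may be technical.

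Markers of macrophages and T cells were near the low end of the scale in C57epi.1. Of 15 macrophage markers 0 rose and 1 fell (Lyz2), and their mean level was 4.09 to 4.23 on supernatant arrays and 4.16 to 4.31 on media arrays, against 11.58 in macrophages in media. The leukocyte gene Ptprc had log2 levels of 3.75, 4.03, 3.9 and 4.16 in supernatant and of 3.92, 3.83, 3.94 and 4.18 in media. Of 13 T cell markers, 0 were called by limma and 0 had an unadjusted p under 0.05, with a mean level of 3.87 to 3.91 in supernatant and 3.85 to 4.04 in media. The T cell receptor subunit Cd3e stood at 4.57 to 4.76 in supernatant and at 4.48 to 5.02 in media. Of 17 epithelial markers, some were high and others were not. Their mean level was 5.39 to 5.5 on supernatant arrays and 5.3 to 5.47 on media arrays, against 5.03 in macrophages in media. The simple-epithelium keratin Krt19 averaged 11.7 in supernatant and 11.3 in media, and its partner Krt8 averaged 9.03 in supernatant and 9.25 in media. The adhesion molecules Epcam (3.75 in supernatant, 3.74 in media) and Cdh1 (4.3 in supernatant, 4.34 in media) were low, and the mesenchymal filament Vim was high (13.4 in supernatant and 13.4 in media). Krt19, Krt8, Epcam, Cdh1 and Vim were not called. Of the same epithelial list, Krt18 (0.52) and Muc1 (0.665) rose and Krt7 (−0.69) fell. The calls of Krt18 and Krt7 were lost when only the compared arrays were fitted.

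With the supernatant, 1765 of 19938 genes (8.85%) rose and 2067 (10.4%) fell in C57epi.1 at an adjusted p under 0.05 in limma. By at least 2-fold, 509 genes (2.55%) rose and 257 (1.29%) fell. Within the pairs of replicates tested alone, 1107 genes (5.55%) rose in both and 974 (4.89%) fell in both, while 58 (0.291%) moved in opposite directions. Of the 1765 genes that rose over all arrays, 1501 (7.53% of all genes) had supernatant arrays that did not overlap with the media arrays, as had 1650 (8.28%) of the 2067 that fell. The median difference over all genes was −0.04. The 15 largest rises were taken among genes with groups that do not overlap, with predicted and similar unnamed genes passed over. They were led by Gbp3, Iigp1, Trim30a, Ifit3, Ifi205, Cxcl9 and Mx2, each up by more than 7 on the log2 scale.

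Gbp3, a guanylate-binding protein, had log2 levels of 12.06, 11.94, 11.91 and 11.84 in supernatant, against 3.86, 3.93, 4.51 and 4.31 in media. That is a rise of 7.79 (SE 0.53, adjusted p = 2.20e-10), or 8.11 in replicates 1 and 2 and 7.46 in replicates 3 and 4. Iigp1, an immunity-related GTPase, stood at 11.02, 11.01, 11.06 and 11.11 in supernatant, against 3.74, 3.16, 3.36 and 3.83 in media. For both genes the 4 supernatant arrays lay within 0.3 of each other, far above every media array. Mx2, a GTPase of the antiviral Mx family, had log2 levels of 10.4, 10.21, 10.01 and 10.13 in supernatant and of 3.04, 2.89, 3.09 and 3.69 in media. Mpeg1, which encodes the pore-forming protein perforin-2 of phagocytes, reached 10.23, 10.24, 10.22 and 10.43 in supernatant, against 3.58, 3.65, 3.96 and 3.65 in media. It rose by 6.57 (SE 0.19, adjusted p = 8.63e-17), the smallest p of these 15 genes. Further rises were Gbp7 by 6.92, Gbp4 by 6.82, the RNA helicase family member Ddx60 by 6.79, Usp18, the protease that removes Isg15, by 6.57, Mx1 by 6.54, and Zbp1, a nucleic acid sensor that can start necroptosis, by 6.5. Cxcl10, a chemokine for activated T cells, had 13.86, 13.7, 13.62 and 13.55 in supernatant, against 7.48, 7.86, 6.73 and 6.75 in media, well above the array median in both groups.

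**Figure D1:**
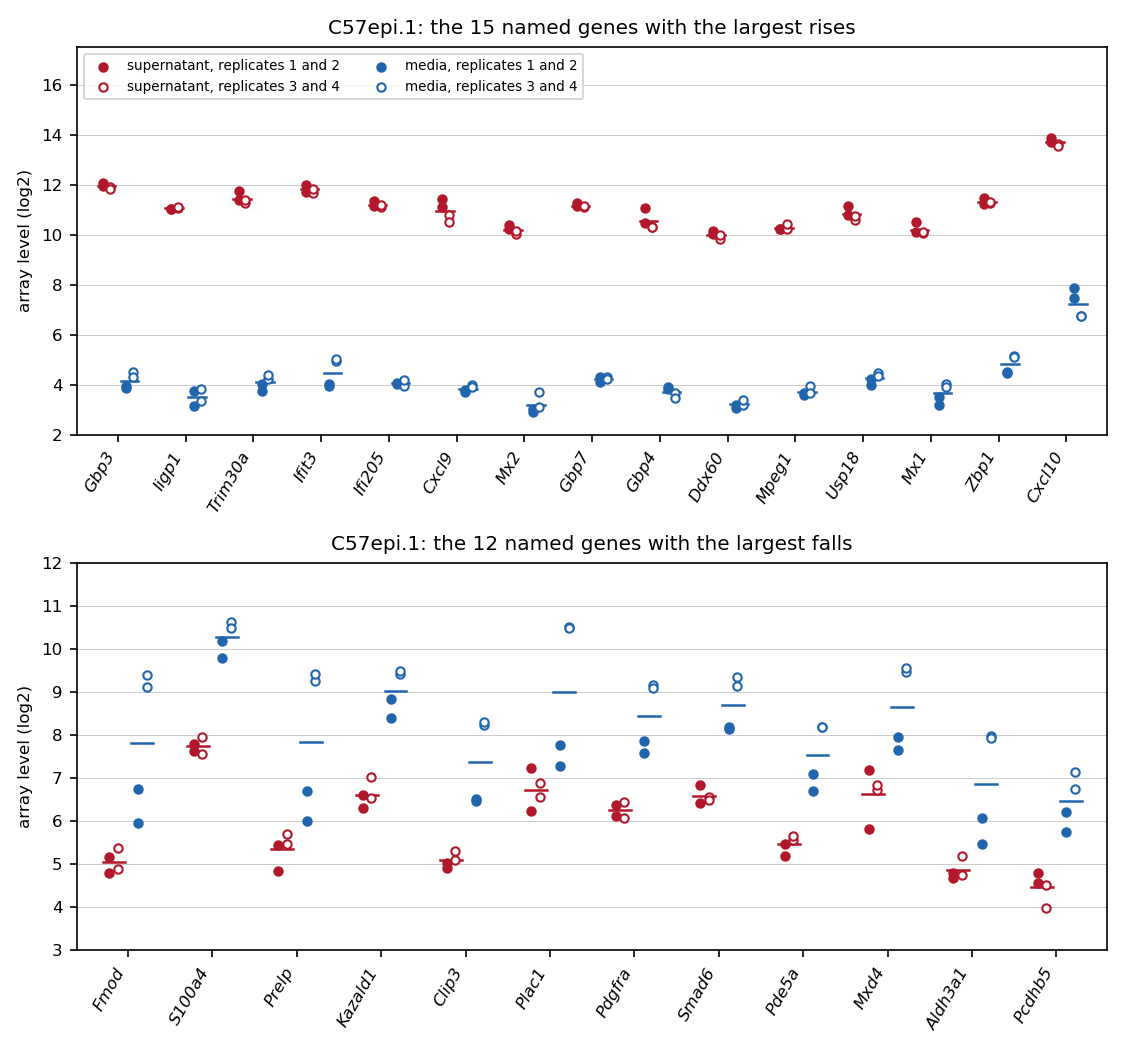
Log2 array levels (y axis) in C57epi.1 of the 15 named genes with the largest rises (top) and the 12 with the largest falls (bottom), supernatant (red, left of each pair) and media (blue, right). Filled points are replicates 1 and 2, open points replicates 3 and 4, and bars are means of 4 arrays. The groups of every gene shown do not overlap, and for most of the falling genes the open media points lie well above the filled ones.

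Promoter sequences are shown for 5 of the genes of the largest rises that hold an ISRE. They come from RefSeq (build GRCm38.p6) and are written 5′ to 3′ on the strand of the gene, with matches to the ISRE (2 copies of GAAA with 2 bases between them, on either strand) in capitals. Where 2 matches overlap, as in Gbp3, the capitals run on.
Gbp3 (chr3:142559959-142560043, plus strand): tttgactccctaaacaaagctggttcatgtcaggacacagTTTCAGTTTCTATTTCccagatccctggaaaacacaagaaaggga
Gbp7 (chr3:142530243-142530332, plus strand): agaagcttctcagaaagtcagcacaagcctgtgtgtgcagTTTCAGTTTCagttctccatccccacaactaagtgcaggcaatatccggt
Trim30a (chr7:104465194-104465269, minus strand): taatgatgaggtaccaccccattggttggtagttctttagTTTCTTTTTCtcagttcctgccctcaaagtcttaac
Ifit3 (chr19:34583333-34583456, plus strand): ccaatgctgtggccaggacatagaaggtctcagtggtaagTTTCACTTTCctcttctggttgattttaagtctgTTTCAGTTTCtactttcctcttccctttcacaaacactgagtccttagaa
Cxcl10 (chr5:92349053-92349139, minus strand): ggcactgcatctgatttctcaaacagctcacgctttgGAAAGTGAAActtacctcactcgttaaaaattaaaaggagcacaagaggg
The letters were found within the 250 bases before the gene's start in 7 of the 9 genes of largest rise that had a promoter in the table (the 5 shown, Ddx60 and Ifi205). They were in 59 of 382 promoters (15.4%) of genes that rose by at least 2-fold over all arrays and in both pairs, in 2 of 182 (1.1%) of genes that fell likewise, and in 531 of 15614 (3.4%) of all genes with a promoter. A match describes the letters only and is not evidence of binding.

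Most measured members of the defence families rose. Of 20 listed guanylate-binding proteins and immunity-related GTPases, 11 were measured. Of these 11, 10 rose, all 10 in both pairs of replicates and 9 by at least 2-fold, with a median of 6.05. Antiviral effectors rose for 26 of 31, all 26 in both pairs (median 3.35), Isg15 system and Parp genes for 13 of 15 (median 3.45), Schlafen and Ifi200 genes for 12 of 15 (median 2.998) and Trim ubiquitin ligases for 16 of 18 (median 1.62). Over all genes tested, 8.85% rose. The media pairs differed here too. In media, 15 antiviral effectors and 10 Isg15 system and Parp genes were higher in replicates 3 and 4 than in 1 and 2 (all genes: 11.5%). Within replicates 3 and 4, 3 antiviral effectors and 1 Isg15 system or Parp gene fell. The list medians within the pairs were 3.35 and 3.36 for antiviral effectors and 3.63 and 2.99 for Isg15 system and Parp genes. Ifit1, which binds foreign RNA caps, had 11.61, 10.95, 10.96 and 11.04 in supernatant and 4.85, 4.03, 5.1 and 5.5 in media. Herc6, the ligase that attaches Isg15 to proteins in mice, rose by 5.4 (SE 0.22), and Parp14, a mono-ADP-ribosyltransferase, by 5.12 (SE 0.34). Slfn2, a Schlafen protein of lymphoid and myeloid cells, rose by 5.89, the DNA sensor family members Ifi213 and Ifi209 by 5.62 and 5.57, and the ubiquitin ligases Trim30d and Trim12a by 5.93 and 5.36. Probe sets of these similar genes may share signal.

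Transcription factors of the interferon response rose with their targets. Of 15 interferon regulatory factors and partners, 8 rose, each in both pairs. Over all arrays 2 fell, Nlrc5, the class I coactivator (−0.42), and Irf3 (−0.28), and neither did so in both pairs. Irf1 had log2 levels of 12.2, 11.89, 11.83 and 11.91 in supernatant, against 8.53, 8.51, 8.27 and 8.33 in media, a rise of 3.55 (SE 0.17, adjusted p = 3.54e-13). Its media level was well above the array median, so this 11.7-fold rise does not start from background. Irf7, which amplifies interferon genes, stood at 11.3, 11.44, 11.47 and 11.53 in supernatant and at 5.44, 4.76, 6.93 and 7.02 in media. Its media arrays parted by replicate pair, so that it rose by 6.27 within replicates 1 and 2, and by 4.53 within the other pair. Batf2, a partner of Irf factors, rose by 4.73 (SE 0.19) and the stress factor Atf3 by 3.37 (SE 0.21). Among interferon receptors, Jak, Stat and Socs genes, 5 of 19 rose, each in both pairs, among them the interferon signal transducer Stat2 by 3.39, the kinase Jak2 by 1.14, and the feedback genes Socs1 by 0.98 and Ptpn2 by 0.92. In the same list 3 fell, the receptor chains Ifnar1 (−0.54) and Ifngr1 (−0.33) and the kinase Tyk2 (−0.44), of which Ifngr1 fell in both pairs, and 1 of the list fell when only the compared arrays were fitted. Irf8, which drives myeloid cells, was at 4.94 to 5.29 in supernatant and 5.09 to 5.62 in media and was not called (adjusted p = 0.411).

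Sensors of microbes rose selectively. Over all genes, 8.85% rose and 10.4% fell. Of 18 genes of cytosolic nucleic acid sensing, 11 rose in both pairs and 1 fell in both. The RIG-I-like helicase Dhx58 rose by 4.76 and its relative Ddx58, RIG-I itself, by 2.81 (SE 0.25, adjusted p = 2.77e-08). Of 20 Toll-like receptors and adaptors, 5 rose over all arrays and 2 in both pairs, and 3 rose without media replicate 2, without supernatant replicate 2 or when only the compared arrays were fitted. Tlr3, the endosomal receptor for viral RNA, had 9.19, 8.27, 8.07 and 8.32 in supernatant and 4.73, 4.13, 4.98 and 4.69 in media. Irak2, a kinase downstream of these receptors, rose by 1.34, while Tlr2, a receptor for bacterial lipopeptides, stood at 8.07, 7.44, 7.4 and 7.49 in supernatant against 6.8, 6.82, 7.73 and 7.89 in media and was not called (adjusted p = 0.393). The Tlr2 groups overlap, since the media pairs lie apart. Of 19 Nod receptor and inflammasome genes 5 rose, all in both pairs, and 2 fell, 0 of them in both pairs. Casp4, the caspase that senses bacterial lipopolysaccharide in the cytosol (as caspase-11), rose by 2.86 (SE 0.28), Casp1 by 2.65 (SE 0.20) and Casp12 by 2.37. Nod1, which binds bacterial peptidoglycan, rose by 1.13, and the pore-forming Gsdmd by 0.92. Casp12 was at 10.18, 10.18, 10.2 and 10.17 in supernatant, against 7.53, 7.34, 8.24 and 8.16 in media. Il1b and Il18, the cytokines that Casp1 matures, did not pass the test. Il1b stood at 3.34 to 3.84 in supernatant and 3.6 to 4.09 in media. Il18 stood at 2.76 to 3.37 in supernatant and 2.87 to 3.3 in media.

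**Figure D2:**
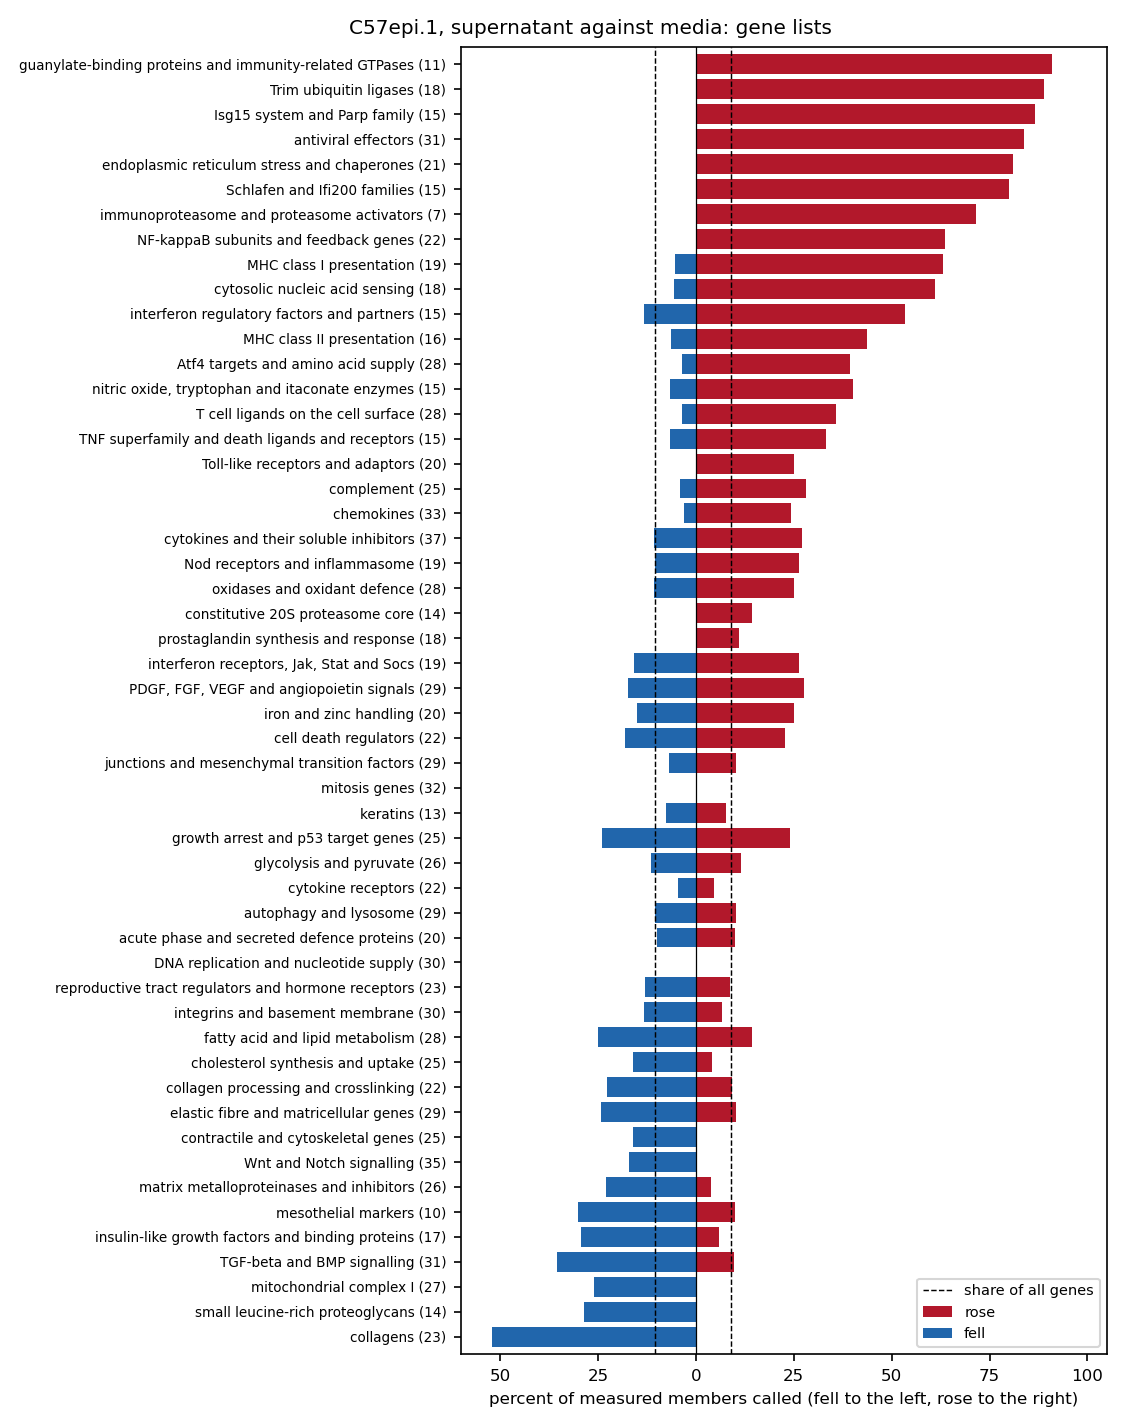
Percent of the measured members of each gene list (number measured in brackets) that rose (red, right) or fell (blue, left) in C57epi.1, supernatant against media, at an adjusted p under 0.05. Dashed lines mark the shares over all genes, 8.85% risen and 10.4% fallen. Defence families and the chaperone list stand at the top, and collagens at the bottom with 12 of 23 members fallen.

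Genes of antigen presentation rose in part. Of 7 immunoproteasome and proteasome activator genes 5 rose, all in both pairs. Psmb8, an inducible catalytic subunit, had 8.09, 8.09, 8.36 and 8.24 in supernatant, against 5.05, 5.15, 4.9 and 5.32 in media. Psmb10, another such subunit, rose by 3.10, and the activator subunits Psme2 and Psme1 by 1.65 and 1.24. Psmb9, the remaining inducible catalytic subunit, stood at 6.18, 5.81, 6.18 and 6.14 in supernatant and at 5.3, 6.19, 5.76 and 5.67 in media. Its groups overlap and it was not called (0.35, SE 0.22, adjusted p = 0.319). MHC class I genes rose for 12 of 19, all 12 in both pairs, led by the class Ib gene H2-T24 (3.96), the peptide editor Tapbpl (2.81) and H2-Q4 (2.41). In the same list 1 fell, though not in both pairs. The peptide transporter subunit Tap1 had 6.13, 6.84, 7.16 and 6.61 in supernatant and 4.17, 4.58, 4.15 and 4.53 in media. MHC class II genes rose for 7 of 16 (all genes: 8.85%), all in both pairs, and 1 fell in both pairs by at least 2-fold. H2-Aa, a class II alpha chain, had 8.59, 8.84, 8.66 and 8.78 in supernatant, against 3.8, 3.33, 3.49 and 3.14 in media. The invariant chain Cd74 rose by 5.09, the class II beta chain H2-Ab1 by 3.02, the protease Ctss, which trims the invariant chain, by 3.46, and Ciita, the coactivator that drives class II genes, by 2.39 (SE 0.14).

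Chemokines rose for 8 of 33 (all genes: 8.85%), each in both pairs of replicates. They were led by the attractants of activated T cells, Cxcl9 (7.11), Cxcl10 (6.48) and Cxcl11 (4.88), followed by the monocyte attractant Ccl7 (3.88). Cxcl9 had 11.41, 11.11, 10.78 and 10.52 in supernatant, against 3.79, 3.71, 3.97 and 3.91 in media. Cxcl12, a chemokine that stromal cells make without stimulation, moved the other way, at 10.65, 10.01, 9.78 and 10.22 in supernatant against 11.48, 11.53, 12.15 and 12.12 in media (−1.66, adjusted p = 8.76e-06). It fell by 1.18 in replicates 1 and 2 and by 2.13 in replicates 3 and 4. The neutrophil attractant Cxcl1 stood at 9.92 to 10.77 in supernatant and 9.39 to 10.15 in media and was not called (adjusted p = 0.28).

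Of 37 cytokines and soluble inhibitors, 10 rose over all arrays and 8 of them in both pairs, while 4 fell, 2 of them in both pairs. Over all genes 8.85% rose and 10.4% fell, so the share of falls was near that of all genes. The falls were of Tgfb3 (−1.53), Kitl, the ligand of the receptor Kit (−1.39), Il16 (−1.12) and Tgfb2 (−0.57), and 2 fell without supernatant replicate 2 or 3 or without media replicate 3 or 4. Il15, which sustains natural killer and memory T cells, rose by 3.15 and its receptor chain Il15ra by 1.32, 1 of 22 cytokine receptors to rise. Il18bp, the soluble inhibitor of interleukin-18, had 8.6, 8.67, 8.36 and 8.56 in supernatant, against 5.58, 6.01, 5.87 and 5.34 in media. Lif, a cytokine of the interleukin-6 family, rose by 1.84, and Il6 itself by 2.10 to levels between 4.16 and 5.35 in supernatant, against 2.5 to 2.81 in media. On the cell surface, 10 of 28 ligands for T cells rose, 9 in both pairs, and 1 fell, though not in both pairs. Cd40 did not rise and was called lower in limma (−0.315, adjusted p = 0.0396), a call lost when only the compared arrays were fitted (adjusted p = 0.0766). The inhibitory ligand Cd274 (PD-L1) had 9.07, 8.96, 9.03 and 8.88 in supernatant, against 4.05, 4.23, 4.15 and 4.16 in media. Lgals9 rose by 1.90, Pvr, a ligand of Tigit and Cd226, by 1.42, Tnfrsf14 by 1.36 and the adhesion molecule Icam1 by 0.87. Of 15 TNF superfamily and death ligands and receptors, 5 rose and 1 fell, with Tnfsf10 (TRAIL) up by 4.50 and Fas by 1.66. Cell death regulators went either way, with 5 of 22 risen and 4 fallen, 2 of these falls in both pairs. Daxx rose by 2.51 and the necroptosis effector Mlkl by 2.09 (SE 0.08), while the caspase Casp6 fell by 1.9.

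Feedback genes of NF-kappaB rose with smaller steps. Of 22 NF-kappaB subunits and feedback genes, 14 rose and 13 did so in both pairs (median 0.78). Tnfaip3, the A20 enzyme that limits NF-kappaB, had 9.96, 9.04, 9.05 and 8.99 in supernatant, against 7.34, 7.54, 7.44 and 7.12 in media. Tnip3 rose by 1.93, the inhibitor Nfkbie by 1.91 and Tnfaip2 by 1.31. In the complement list, 7 of 25 rose (all genes: 8.85%), 5 of them in both pairs, and 1 fell in both pairs by at least 2-fold. Factor B (Cfb) stood at 9.82, 10.2, 10.15 and 10.4 in supernatant, against 4.71, 4.67, 4.62 and 5.09 in media. C4b rose by 4.80 in replicates 1 and 2 and by 2.38 in replicates 3 and 4, and Serping1, the C1 inhibitor, rose by 2.03. The acute phase gene Saa3 likewise rose by 3.92 in replicates 1 and 2 and by 1.93 in replicates 3 and 4. Ptgs2, the inducible cyclooxygenase, had 11.32, 11.56, 11.75 and 11.36 in supernatant, against 9.39, 8.79, 9.01 and 8.7 in media. With Pla2g4a (0.79), which frees its substrate arachidonic acid, it was 1 of 2 of 18 prostaglandin genes to rise.

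Enzymes that deprive microbes of nutrients or make toxic products rose for 6 of 15 (all genes: 8.85%), all in both pairs, and 1 fell in both pairs. Nos2, the inducible nitric oxide synthase, had log2 levels of 8.41, 9.64, 9.88 and 9.96 in supernatant, against 4.62, 4.76, 4.44 and 4.43 in media (4.91, SE 0.34, adjusted p = 2.48e-10). Gch1, which makes its cofactor tetrahydrobiopterin, rose by 2.87 and Acod1, which makes itaconate, by 2.79. Supernatant replicate 1 was the lowest of the 4 for Nos2 and for Acod1 (6.53, against 7.59, 7.66 and 7.43 in the other supernatant arrays and 4.33 to 4.87 in media). Of the enzymes acting on tryptophan, Wars, the tryptophanyl-tRNA synthetase, rose by 2.21, Ido1 by 1.56 and Ido2 by 1.28. Ido1 reached levels of 4.73, 5.05, 5.55 and 5.2 in supernatant, against 3.52, 3.77, 3.59 and 3.41 in media, and the groups do not overlap. Kmo and Kynu, which act further along the same pathway, were not called and stayed under 3.9 on all 8 arrays.

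Genes that serve protein folding in the endoplasmic reticulum rose together. Of 21 chaperone and endoplasmic reticulum stress genes, 17 rose (all genes: 8.85%) and 0 fell, with a median difference of 0.81, and 14 of them rose in both pairs of replicates (median 0.64 in replicates 1 and 2 and 1.00 in replicates 3 and 4). Creld2, a stress-induced protein of this compartment, had 9.47, 10.72, 10.59 and 10.05 in supernatant, against 8.34, 8.34, 7.79 and 7.7 in media (2.17, SE 0.31, adjusted p = 1.88e-05). Hspa5 (BiP), the main chaperone there, had 12.64, 13.2, 13.15 and 13.02 in supernatant, against 11.84, 11.99, 11.68 and 11.77 in media (1.18, SE 0.16, adjusted p = 1.07e-05). In both genes every supernatant array lay above every media array. Sdf2l1, a partner of Hspa5, rose by 1.58, the chaperone Hyou1 by 1.5 and Herpud1, which serves the removal of misfolded proteins, by 1.44. The factor Atf6 rose by 1.24, the lectin chaperone Calr by 0.81, Hsp90b1 by 0.70 and the sensor kinase Ern1 by 0.70. Xbp1 (0.25, adjusted p = 0.193), Pdia3 (0.23), Canx (0.17) and Pdia6 (0.41, adjusted p = 0.0884) did not pass the test. Supernatant replicate 1 was the lowest of its group for 20 of the 21 genes, and without it 20 of them rose.

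The promoters of 4 chaperone genes are shown because the list moved together. Capitals mark matches, on either strand, to the endoplasmic reticulum stress element, CCAAT and CCACG with 9 bases between them.
Hspa5 (chr2:34771985-34772083, plus strand): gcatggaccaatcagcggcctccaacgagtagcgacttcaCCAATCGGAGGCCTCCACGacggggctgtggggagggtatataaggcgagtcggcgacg
Creld2 (chr15:88819480-88819578, plus strand): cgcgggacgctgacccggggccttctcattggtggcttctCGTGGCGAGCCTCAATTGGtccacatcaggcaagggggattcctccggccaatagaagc
Calr (chr8:84847035-84847133, minus strand): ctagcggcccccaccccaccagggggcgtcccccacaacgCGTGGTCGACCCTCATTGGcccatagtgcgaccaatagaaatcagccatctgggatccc
Hsp90b1 (chr10:86705493-86705694, minus strand): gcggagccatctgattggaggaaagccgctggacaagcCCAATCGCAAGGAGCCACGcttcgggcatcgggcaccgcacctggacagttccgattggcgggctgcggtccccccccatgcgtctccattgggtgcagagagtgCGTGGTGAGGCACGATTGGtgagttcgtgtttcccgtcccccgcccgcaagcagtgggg
The element was in 8 of 18 promoters of the list (44.4%: Calr, Canx, Creld2, Dnajc3, Hsp90b1, Hspa5, Pdia6 and Syvn1) and in 20 of 15614 of all genes (0.128%). Genes with and without it rose, and Canx and Pdia6, which hold it, were not called. The list was drawn from known stress targets, so the share describes the list and not the response.

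The rise of the chaperone genes differed from the response of the other cells. In Bm12.4 their median difference was −0.26, with 0 risen and 1 fallen, and in macrophages it was 0.08, with 1 risen. These comparisons use the same 8 C57epi.1 arrays. Tested as a difference of response, 14 of 21 members were higher in C57epi.1 than in Bm12.4 (all genes: 1.99%) and 11 were higher than in macrophages (all genes: 5%), and 0 were lower in either test. Within replicates 1 and 2 alone 10 members, and within replicates 3 and 4 alone 15 members, were higher than in Bm12.4. The share of all genes called in these tests within pairs was not counted. Other lists also gave more such calls in replicates 3 and 4, with 15 of 31 antiviral effectors there against 4 in replicates 1 and 2. Hspa5 moved by 1.18 in C57epi.1, against −0.32 in Bm12.4, a difference of 1.5 (adjusted p = 0.000365). Herpud1 differed by 2.02 (adjusted p = 0.00166), Atf6 by 1.47 (adjusted p = 0.000843) and Dnajc3, a co-chaperone, by 1.08 (adjusted p = 0.000836).

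**Figure D3:**
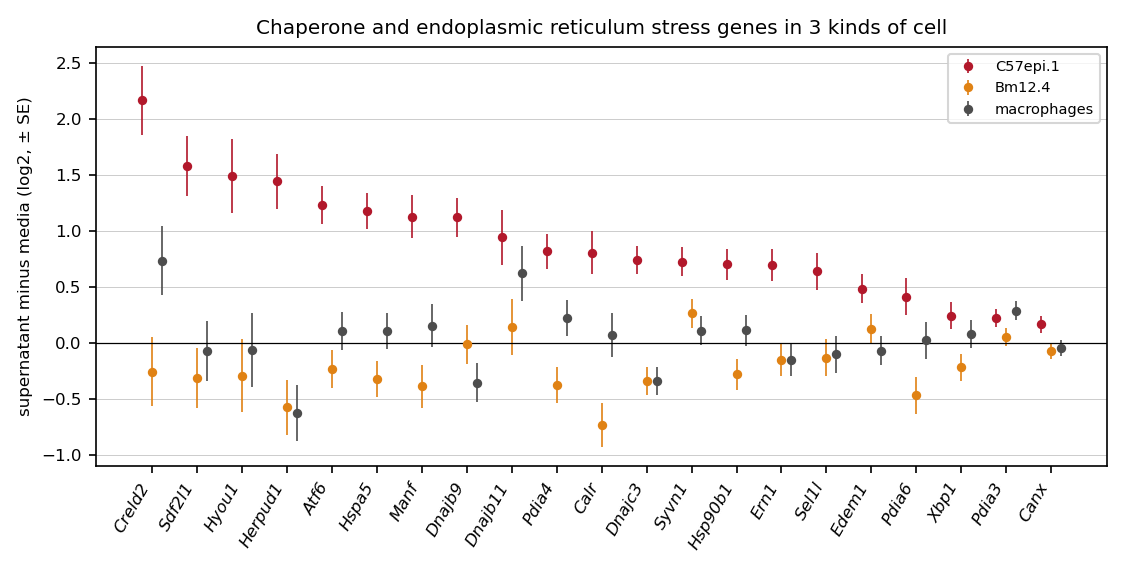
Supernatant minus media (log2, with SE) for the 21 chaperone and endoplasmic reticulum stress genes in C57epi.1 (red), Bm12.4 (orange) and macrophages (grey), 4 arrays per group. In C57epi.1 all 21 differences are above 0, from 0.17 for Canx to 2.17 for Creld2, while those in Bm12.4 lie below 0 for most genes.

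Targets of Atf4, a transcription factor of the response to amino acid shortage and endoplasmic reticulum stress, rose for 11 of 28 (all genes: 8.85%). Of these, 7 rose in both pairs. The list median was 0.91, and 0.31 and 1.37 within the pairs, and 1 member fell in both pairs. Slc7a11, the cystine importer, had 9.19, 10.1, 10.22 and 9.99 in supernatant, against 8.44, 6.21, 6.34 and 5.78 in media (3.18, SE 0.61). It rose by 2.32 within replicates 1 and 2 and by 4.04 within replicates 3 and 4. Ddit3, the stress factor CHOP, had 8.87, 10.18, 10.06 and 9.81 in supernatant, against 7.27, 5.76, 6.86 and 7.07 in media (2.99, SE 0.27, adjusted p = 3.42e-08). Its groups do not overlap, and it rose by 3.01 in replicates 1 and 2 and by 2.97 in replicates 3 and 4. Trib3, a pseudokinase induced by CHOP, rose by 2.20 and the stress protein Nupr1 by 2.18. Media replicate 1 was the highest media array for 23 of the 28 genes. Without it, 17 members rose, and with the replicate pair as a block 19. Of the 28, 14 were lower in media replicates 3 and 4 than in 1 and 2 (all genes: 11.4%) and 0 higher, so the size of this group moved with the media pair. Over all arrays 0 members responded more than in Bm12.4, within replicates 1 and 2 there were 2, and within replicates 3 and 4 there were 11. For the tests within pairs, the share of all genes was not counted.

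Slc7a11 and Chac1, an enzyme that degrades glutathione, carry matches to the Atf4 element TGATGNAA, in capitals, on either strand.
Slc7a11 (chr3:50443614-50443719, minus strand): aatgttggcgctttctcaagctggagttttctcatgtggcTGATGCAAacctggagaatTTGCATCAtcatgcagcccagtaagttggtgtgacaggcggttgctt
Chac1 (chr2:119351009-119351096, plus strand): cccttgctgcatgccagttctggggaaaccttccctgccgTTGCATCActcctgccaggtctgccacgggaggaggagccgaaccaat
The element was in 5 of 23 promoters of the list (21.7%) and in 491 of 15614 of all genes (3.14%). In the list, Asns, Chac1, Nupr1, Slc7a11 and Vldlr carried it. The list was drawn in part from known Atf4 targets, so the share describes the list and not the response. Among genes that rose by at least 2-fold over all arrays and in both pairs, 24 of 382 promoters (6.28%) held it. Among genes that fell likewise, 3 of 182 (1.65%) did. Chac1 had 9.45, 9.27, 9.42 and 9.35 in supernatant, against 9.04, 7.16, 6.87 and 6.78 in media (1.91, adjusted p = 0.000457), a rise of 1.26 within replicates 1 and 2 and of 2.56 within replicates 3 and 4.

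Oxidant defence and growth arrest genes had calls in both directions, where 8.85% of all genes rose and 10.4% fell. Of 28 genes of oxidases and oxidant defence, 7 rose and 3 fell, with 4 rises and 2 falls in both pairs. These falls lay near the share of all genes. Hmox1, which degrades heme, had 11.36, 12.17, 12.21 and 12.06 in supernatant, against 10.13, 8.94, 9.99 and 10.24 in media (2.12, SE 0.22). Gclm, a subunit of the enzyme that starts glutathione synthesis, rose by 1.68, while Gstm1, a glutathione transferase, fell by 1.57. Of 25 growth arrest and p53 target genes, 6 rose and 6 fell, 5 each way in both pairs. Gadd45a, a stress-induced growth arrest gene, stood at 8.98, 10.08, 9.8 and 9.69 in supernatant and at 7.77, 6.39, 7.4 and 7.54 in media (2.36, SE 0.27). Gadd45g rose by 1.77, and Gas1, named for growth arrest, fell by 1.73 (SE 0.13, adjusted p = 1.22e-09). Sesn1 fell by 1.53.

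The largest falls were smaller than the largest rises, and genes of the matrix were among them. Fmod, a small leucine-rich proteoglycan that binds collagen, had 4.8, 5.18, 4.9 and 5.37 in supernatant, against 6.76, 5.97, 9.12 and 9.4 in media (−2.75, SE 0.50, adjusted p = 0.000308). Prelp, of the same family, had 4.85, 5.45, 5.47 and 5.7 in supernatant, against 6.7, 6.01, 9.26 and 9.41 in media. The groups do not overlap in either gene, but the fall rests largely on media replicates 3 and 4, at −1.38 and −4.12 within the pairs for Fmod and −1.21 and −3.75 for Prelp. S100a4, a calcium-binding protein of motile mesenchymal cells, fell more evenly, with 7.79, 7.63, 7.57 and 7.96 in supernatant, against 10.18, 9.8, 10.62 and 10.49 in media (−2.54, adjusted p = 1.60e-09). Kazald1, a secreted protein of the matrix, fell by 2.41 and was lower in both pairs (−2.16 and −2.66). Also among the 12 largest falls were Clip3 (−2.29), Plac1 (−2.28), the cGMP phosphodiesterase Pde5a (−2.08), the Max-binding repressor Mxd4 (−2.02), the aldehyde dehydrogenase Aldh3a1 (−2.0) and the protocadherin Pcdhb5 (−2.0). Plac1 was not called when only the C57epi.1 arrays were fitted (adjusted p = 0.0618).

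Collagens fell for 12 of 23 and rose for 0 (all genes: 10.4% fell), with a median of −0.37, and 7 fell in both pairs. Col6a1, of the beaded filaments of type VI collagen, had 9.54, 10.07, 10.15 and 10.44 in supernatant, against 11.1, 10.9, 11.83 and 11.79 in media (−1.35, SE 0.22). Its partner Col6a2 fell by 1.05, the fibrillar Col3a1 by 1.04 and the basement membrane chain Col4a6 by 0.85. Against media replicates 1 and 2 alone, 4 collagens fell, and against media replicates 3 and 4 alone, 15. Of 14 small leucine-rich proteoglycans 4 fell, all 4 in both pairs. P4ha3, a prolyl hydroxylase of collagen, fell by 1.97, whereas the lysyl hydroxylase Plod3 rose by 0.98. Among elastic fibre and matricellular genes 7 of 29 fell, such as Emilin1 (−1.38) and Fbln2 (−1.16), and 3 rose, with Ltbp1, which holds latent TGF-beta in the matrix, up by 1.23. In the metalloproteinase list Mmp13, a collagenase, was 1 of 26 to rise over all arrays (1.91, SE 0.27), and 6 fell, 2 of them in both pairs. When only the compared arrays were fitted, 2 rose and 3 fell.

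The list of fibroblast and stromal markers shares members with the genes above, such as Col3a1 and S100a4, so its falls are not separate from theirs. Of 15 such markers, 6 fell (all genes: 10.4%) and 0 rose. Their mean level was 7.81 to 7.92 on supernatant arrays, against 8.1 to 8.77 on media arrays. Within replicates 1 and 2 alone 4 fell and 2 rose (all genes: 7.46% and 7.48%, list median −0.14). Within replicates 3 and 4 alone 8 fell (all genes: 14.9%) and 0 rose (median −0.62). Pdgfra, a growth factor receptor of mesenchymal cells, had 6.12, 6.38, 6.08 and 6.44 in supernatant, against 7.87, 7.59, 9.17 and 9.1 in media (−2.18, SE 0.37), with −1.48 and −2.88 within the pairs. In these whole cultures, fewer cells of a kind and less RNA per cell cannot be told apart, and the part of either in these results was not tested. The transition factor Snai1 fell by 1.71 (SE 0.17), with 8.31, 8.1, 8.33 and 8.33 in supernatant, against 9.8, 9.42, 10.43 and 10.26 in media.

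Signals of the BMP and TGF-beta pathways fell for 11 of 31 and rose for 3 (median −0.28), where 10.4% of all genes fell and 8.85% rose. In both pairs 5 fell and 1 rose. Without media replicate 3 or without media replicate 4, 7 fell. BMP ligands act through Smad1, Smad5 and Smad9, which turn on Id genes and the inhibitor Smad6. Smad6 had 6.84, 6.43, 6.56 and 6.49 in supernatant, against 8.18, 8.14, 9.13 and 9.34 in media (−2.12, SE 0.21, adjusted p = 1.20e-07). Id2, an inhibitor of differentiation factors, had 8.89, 8.11, 8.36 and 8.61 in supernatant, against 10.13, 10.16, 10.72 and 10.55 in media (−1.90, SE 0.22). Tgfb3, a ligand, fell by 1.53, and Smad9, a signal transducer, by 1.49. Id1 fell by 1.41. For these 5 genes the groups do not overlap, and each fell in both pairs. Inhba, the activin subunit, rose in both pairs and by 1.27 over all arrays. The response of Smad6 was lower than in Bm12.4 by 1.98 (difference −1.98, adjusted p = 0.000331), that of Id2 differed by −1.65 (adjusted p = 0.0033), of Smad9 by −1.14 and of Id1 by −1.07. In Bm12.4, Smad6 moved by −0.14 and Id2 by −0.25.

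**Figure D4:**
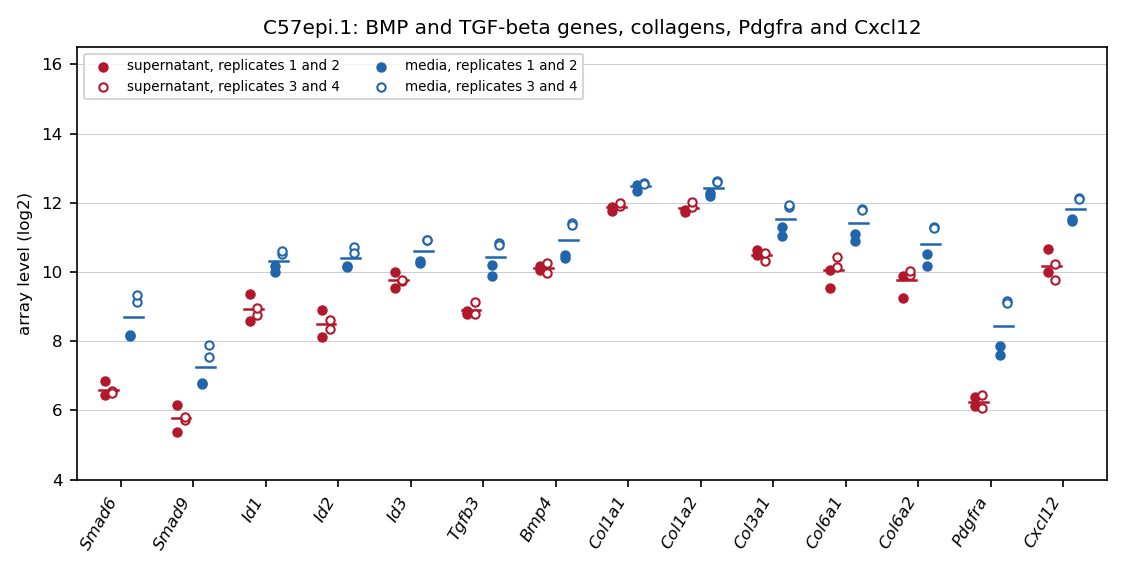
Log2 array levels (y axis) in C57epi.1 of BMP and TGF-beta pathway genes, collagens, Pdgfra and Cxcl12, supernatant (red, left of each pair) and media (blue, right). Filled points are replicates 1 and 2, open points replicates 3 and 4, and bars are means of 4 arrays. Supernatant points lie below media points in every gene shown, and media replicates 3 and 4 are the higher media pair in nearly all.

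Growth factor genes and further signals changed in smaller numbers, where 8.85% of all genes rose and 10.4% fell. Of 29 PDGF, FGF, VEGF and angiopoietin genes 8 rose and 5 fell, among them the EGF receptor ligand Hbegf (1.51), Fgf21, an Atf4 target (1.28), and the receptor Fgfr2 (−1.33). Without media replicate 2, 5 rose, and without media replicate 3 or media replicate 4, 3 fell. Of 17 insulin-like growth factor genes 5 fell, led by Igfbp7 (−1.15, SE 0.16) and Igfbp4 (−0.78, SE 0.10), and the protease Htra1 rose by 0.94. Of 35 Wnt and Notch genes 6 fell and 0 rose, with the Wnt receptor Fzd2 at −1.57 (SE 0.17) and Fzd4 at −0.73. Junction genes such as Jup (plakoglobin, −1.05) and Cldn12 (1.00) went either way. Of 13 keratins 1 rose and 1 fell.

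Cell cycle lists gave 0 calls over all arrays. Of 32 mitosis genes 0 were called by limma over all arrays, with a median of −0.13, or −0.48 in replicates 1 and 2 and 0.31 in replicates 3 and 4. Of 30 DNA replication genes 0 were called likewise (unadjusted p under 0.05 for 1 of them and for 0 mitosis genes), with medians of −0.39 and 0.92 within the pairs. In replicates 1 and 2 alone, 7 replication genes fell (all genes: 7.46%), and in replicates 3 and 4 alone, 21 rose (all genes: 13.4%). Of these lists, 19 mitosis and 28 replication genes were lower in media replicates 3 and 4 than in 1 and 2 (all genes: 11.4%). The proliferation marker Mki67 had 9.67, 9.48, 9.36 and 9.46 in supernatant, against 10.14, 10.12, 9.55 and 9.48 in media (adjusted p = 0.695). The direction of these lists differed between the media pairs.

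**Figure D5:**
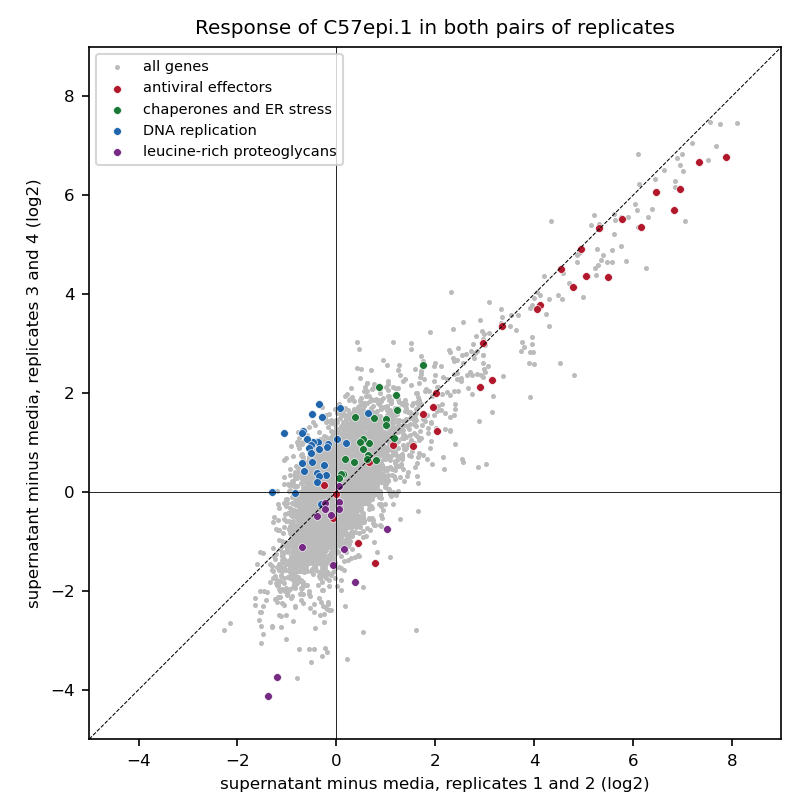
Supernatant minus media in C57epi.1 (log2) within replicates 1 and 2 (x axis) and within replicates 3 and 4 (y axis), 1 point per gene over 19938 genes, with the line of equality dashed. Antiviral effectors lie along the line up to about 7, chaperone genes lie mostly above 0 on both axes, and DNA replication genes lie mostly below 0 on the x axis and above 0 on the y axis.

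Metabolic genes moved by less. Mitochondrial complex I genes fell for 7 of 27 and rose for 0 (median −0.22), with 3 in both pairs, led by Ndufb10 (−0.61, SE 0.09), and 4 fell without supernatant replicate 3 or with arrays centred on their median. In the cholesterol list 4 of 25 fell (all genes: 10.4%), and Insig2 rose (0.51). Hmgcs1 (−0.84) and Insig1 (−0.83) fell in both pairs, and 2 members fell without supernatant replicate 1 or without supernatant replicate 3. Of 26 glycolysis and pyruvate genes 3 rose and 3 fell (median 0.02), with 3 rises and 2 falls in both pairs. Pfkfb3, which makes the activator of phosphofructokinase, had 8.29, 8.21, 8.39 and 8.25 in supernatant, against 7.05, 6.86, 5.92 and 5.99 in media (1.83, SE 0.20). The muscle type phosphofructokinase Pfkm fell by 1.06, and Pdk2, a kinase of pyruvate dehydrogenase, by 1.26 (adjusted p = 0.0461), a call lost without any 1 of 6 arrays. In lipid metabolism the mitochondrial dehydrogenases of fatty acid oxidation parted, with Acadm at −1.44 and Acadl at 1.10, and Pnpla2, a lipase of lipid droplets, rose by 1.26 (SE 0.10). Sqstm1, the autophagy receptor p62, rose by 1.00 to levels of 12.19, 12.7, 12.69 and 12.56 in supernatant, against 11.46, 11.04, 11.79 and 11.84 in media.

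The response of C57epi.1 differed from that of Bm12.4 in 803 genes (4.03%), higher in 397 (1.99%) and lower in 406 (2.04%). All of these comparisons, and those with macrophages, share the 8 C57epi.1 arrays. Xdh, xanthine oxidoreductase, rose by 5.06 in C57epi.1, at 10.03, 10.05, 9.95 and 10.06 in supernatant against 4.85, 4.3, 5.36 and 5.35 in media, while in Bm12.4 it averaged 11.98 in supernatant and 10.28 in media. The difference of response was 3.35 (SE 0.33, adjusted p = 2.18e-06). Apela, a peptide ligand of the apelin receptor, had 6.7, 7.92, 7.11 and 6.91 in supernatant, against 3.53, 3.28, 4.09 and 4.71 in media, and averaged 2.92 in supernatant and 2.92 in media in Bm12.4 (3.26, adjusted p = 2.27e-06). Cxcl11 rose by 4.88 in C57epi.1, against 1.97 in Bm12.4. Phf11d (2.75), the lipid transporter Mfsd2a (2.60), Gadd45a (2.60) and Creld2 (2.42) also responded more in C57epi.1, though Mfsd2a was not called when only the arrays of these groups were fitted (adjusted p = 0.0631). Car6 differed by 3.17 with adjusted p = 0.045, and lost the call without any 1 of 10 of the 16 arrays, and when only the arrays of these groups were fitted.

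Other interferon genes moved less in C57epi.1 than in Bm12.4. Cmpk2, a nucleotide kinase of mitochondria, stood at 3.95, 3.43, 3.75 and 4.21 in supernatant and at 4.12, 3.75, 3.79 and 3.9 in media, against averages of 10.42 in supernatant and 5.07 in media in Bm12.4. Such levels in C57epi.1 cannot be told from background, and the difference of response was −5.4 (SE 0.38, adjusted p = 1.12e-08). Parp12, an antiviral ADP-ribosyltransferase, likewise had 3.89, 3.99, 3.79 and 3.76 in supernatant and 3.94, 4.11, 4.02 and 4.21 in media, with averages of 11.24 in supernatant and 8.37 in media in Bm12.4 (−3.09). Psmb9 differed by −4.09 (adjusted p = 2.79e-08), and its Bm12.4 averages were 11.23 in supernatant and 6.79 in media. Apol10a, of the apolipoprotein L family, differed by −2.58. Ly6e, a lipid-anchored protein of the cell surface, averaged 11.55 in supernatant and 8.36 in media in C57epi.1, and 11.6 in supernatant and 4.86 in media in Bm12.4 (difference −3.54). H2-Q4 differed by −2.79. Pdgfra, which fell in C57epi.1, was not called in Bm12.4, with 8.5 in supernatant and 8.04 in media, and the difference was −2.64 (adjusted p = 0.00469). For Prelp it was −2.69 (adjusted p = 0.0414), and not called without any 1 of 11 of the 16 arrays.

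Against macrophages the response differed in 1980 genes (9.93%), higher in 996 (5%) and lower in 984 (4.94%). Of the 8 largest differences on the higher side, 6 were of genes that macrophages already carried at high levels in media. Mpeg1 averaged 13.01 in supernatant and 12.75 in media in macrophages, and the difference of response was 6.32 (SE 0.26, adjusted p = 3.68e-13). In macrophages H2-Aa averaged 12.47 in supernatant and 12.04 in media, and Cd74 averaged 12.76 in supernatant and 12.34 in media. Trim30a averaged 12.04 in supernatant and 9.73 in media there, and Gbp3 averaged 11.95 in supernatant and 8.91 in media. The differences of response were 4.84 for H2-Aa, 4.67 for Cd74, 4.81 for Slfn2, 5.04 for Trim30a and 4.74 for Gbp3. After treatment C57epi.1 stood at 10.28 for Mpeg1, 8.72 for H2-Aa and 9.48 for Cd74, below macrophages, and at 11.44 for Trim30a and 11.94 for Gbp3, within 0.7 of them. Ms4a4d, a membrane protein, and Apol10b were low in macrophages in either state and rose in C57epi.1 by 5.92 and 4.82 (differences 5.16 and 4.67).

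The largest differences on the lower side were of genes that rose in macrophages. The membrane proteins Ms4a4c, Ms4a6b and Ms4a6c were at 3.61 to 4.05, 3.56 to 3.83 and 2.94 to 3.19 in supernatant in C57epi.1, and at 3.06 to 3.44, 3.5 to 3.85 and 2.99 to 3.17 in media. They rose in macrophages by 6.42, 5.38 and 5.24, and the differences of response were −5.96, −5.41 and −5.23. Edn1, the vasoconstrictor endothelin-1, had 8.96, 8.22, 8.15 and 8.23 in supernatant, against 9.44, 9.41, 9.9 and 9.84 in media in C57epi.1 (−1.26), and averaged 8.38 in supernatant and 4.3 in media in macrophages (difference −5.33, SE 0.36). With the supernatant, Edn1 averaged 8.39 in C57epi.1, near its level in treated macrophages. Gbp2b rose by 0.45 in C57epi.1 and by 4.36 in macrophages (−3.91), and Cmpk2 (−4.87), the actin-binding Cnn3 (−4.0) and the receptor Klra2 (−3.74) were not called in C57epi.1 and rose in macrophages. Cnn3 was called lower in C57epi.1 (−0.52) with the replicate block (adjusted p = 0.0135) and when only the compared arrays were fitted (adjusted p = 0.00351).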

How the data were processed

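Total RNA was labelled with biotin and hybridised to Affymetrix whole-transcript arrays, 4 per group in 6 groups. Per the submitters' processing notes, the authors used GCOS, Partek 6.2 and RMA, which gave the deposited log2 values. No version of GCOS or RMA is stated. RMA aligns array distributions, so a shift common to most genes would not show, and low levels are compressed. The genome build of the probes' design was not used.

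Of 28853 probe sets, 21789 had 1 gene symbol, 1621 several and 5443 none, and the last 2 kinds were not used. Of the 21789, 21698 had gene IDs in RefSeq (GRCm38.p6). For 999 symbols with several probe sets the one with the highest mean was kept, which left 19938 genes. Some genes are not analysed here.

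All tests came from limma 3.58.1 (R 4.3.3), 1 mean per group over 24 arrays (18 residual and 3.62 prior degrees of freedom), two-sided, with Benjamini-Hochberg adjustment over 19938 genes and a call at an adjusted p under 0.05. A second fit split each group into replicates 1 and 2 and replicates 3 and 4 (12 residual degrees of freedom). Differences of response were interaction contrasts. The fits were tested on simulated data with independent noise and the same spread of a gene in all groups. The simulated data held no split between replicate pairs, so that test does not cover such a split. With 4 arrays per group, their number limits the precision.

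There were 60 gene lists with 1264 of 1371 entries measured. They, the members and the rule for named genes were chosen with earlier results of these data known, and counts are not independent evidence. The rule took the 15 largest rises and 12 largest falls with groups that do not overlap and the same sign in both pairs, up to 4 called members of each list described, a set of standard genes, and the 8 largest differences of response each way. Predicted, Riken, LOC, Gm, histone and receptor-cluster genes were passed over. Other named genes, such as the remaining chaperones, Id1, Gsdmd, Ido2 and those in the plots, were chosen after their values were seen. The pairs of replicates were defined after the split was seen. Alternatives changed the arrays in the fit, blocks, prior, array weights, low-level filter, probe set rule and centring, or left out each array.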

Additional observations from a re-analysis of the deposited data

Results flagged for a closer look

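In 14 of 21 chaperone and endoplasmic reticulum stress genes, the response of C57epi.1 exceeded that of Bm12.4 by a limma interaction test. The differences of response were 2.42 for Creld2, 2.02 for Herpud1, 1.89 for Sdf2l1, 1.78 for Hyou1, 1.53 for Calr, 1.51 for Manf, 1.5 for Hspa5, 1.47 for Atf6, 1.19 for Pdia4, 1.14 for Dnajb9, 1.08 for Dnajc3, 0.98 for Hsp90b1, 0.88 for Pdia6 and 0.85 for Ern1. Pdia6 itself was not called in C57epi.1.

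Single genes whose response differed from that of Bm12.4 were, on the higher side, Xdh (3.35), Apela (3.26), Car6 (3.17), Cxcl11 (2.90), Phf11d (2.75), Mfsd2a (2.60), Gadd45a (2.60) and Creld2 (2.42). On the lower side were Cmpk2 (−5.40), Psmb9 (−4.09), Ly6e (−3.54), Parp12 (−3.09), H2-Q4 (−2.79), Prelp (−2.69), Pdgfra (−2.64) and Apol10a (−2.58). Against macrophages, the response was higher for Mpeg1 (6.32), Ms4a4d (5.16), Trim30a (5.04), H2-Aa (4.84), Slfn2 (4.81), Gbp3 (4.74), Apol10b (4.67) and Cd74 (4.67). It was lower for Ms4a4c (−5.96), Ms4a6b (−5.41), Edn1 (−5.33), Ms4a6c (−5.23), Cmpk2 (−4.87), Cnn3 (−4.0), Gbp2b (−3.91) and Klra2 (−3.74).

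A single array stood far from the other 3 of its group, by Dixon's test, in 11 of 146 groups over 73 genes (7.53%), where chance flags about 1 in 20. Among supernatant arrays these were replicate 1 for Mx1 (10.51), Krt19 (10.9), Car6 (6.66) and Edn1 (8.96), replicate 2 for Gbp7 (11.26) and Psmb9 (5.81), and replicate 4 for Mpeg1 (10.43). Among media arrays they were replicate 2 for Krt19 (10.69), Ms4a4d (3.58) and Ms4a4c (3.06), and replicate 4 for Icam1 (7.95).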

How the results depend on the processing

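Over all 24 arrays, 1765 genes rose, 2067 fell and 766 changed by at least 2-fold, and the response differed from Bm12.4 in 803 genes and from macrophages in 1980. With array weights, whose iterations stopped before convergence, these counts were 2696, 3343, 1179, 2675 and 4335. The replicate pair as a block gave 1954 differences from Bm12.4 and 3361 from macrophages, the replicate block 1210 from Bm12.4 and 2087 genes risen, and a fit of the compared groups alone 438. Against media replicates 1 and 2 only, 1141 genes rose and 986 fell, and against media replicates 3 and 4 only, 1574 changed by at least 2-fold; these subsets were chosen after seeing the data. The cause of these shifts was not tested. Leaving out each C57epi.1 array in turn gave 1419 to 1858 risen, 1504 to 2451 fallen, 639 to 1019 changed by at least 2-fold, 534 to 1263 differences from Bm12.4 (1263 without media replicate 2 and 534 without media replicate 4) and 1597 to 2373 from macrophages. The other counts over all genes stayed within 1.5 times under the alternatives run, whereas counts of small lists moved by more. Atf4 target rises, for example, were 19 with array weights or the replicate pair as a block, against 11. Same-numbered arrays share only a number: their deviations from the group means correlated at −0.14 to 0.40, over 0.1 for 3 of 4 numbers, and 2 of 4 correlated best with their own number. Of 213 named genes called, 185 kept the call without each C57epi.1 array in turn, and no named difference that was called reversed. Small changes near background are limited by the lack of a detection measure.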

Other observations

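In C57epi.1 with the supernatant, 8.85% of all genes rose and 10.4% fell. Of 20 iron and zinc handling genes 5 rose and 3 fell, of 29 autophagy and lysosome genes 3 rose and 3 fell, and of 30 integrin and basement membrane genes 2 rose and 4 fell, among them Lamb2 (−1.20) and Itgb3 (−1.01). Lamb2 is a laminin chain and Itgb3 a receptor subunit for vitronectin. Of 20 acute phase and secreted defence genes 2 rose and 2 fell. Of 25 contractile and cytoskeletal genes 4 fell and 0 rose, of 14 subunits of the constitutive 20S proteasome 2 rose and 0 fell, and of 23 reproductive tract regulators and hormone receptors 2 rose and 3 fell, with 1 of these falls in both pairs. Of 10 mesothelial markers 1 rose and 3 fell, with 1 fall in both pairs. Several of these small counts changed by more than 1.5 times when 1 array was left out: without media replicate 3, for example, 0 proteasome subunits rose, 2 contractile genes fell and 1 reproductive tract gene rose. Markers of dendritic cells (8) and neutrophils (10) gave 0 calls in limma (unadjusted p under 0.05 for 0 and 1 of them), those of B cells 1 rise of 7, those of endothelial cells 1 fall of 10, and epithelial markers 2 rises and 1 fall of 17.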
